A study of Mus musculus with 16 samples.

Results

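Hypoxia-inducible genes and the enzymes of glycolysis were followed across 16 mouse melanomas in 4 treatment groups. The set held 39 genes of the 30027 gene names on the array: 15 glycolytic enzymes, 5 transporters and regulators of glycolysis, 17 other targets of hypoxia and the 2 alpha subunits of hypoxia-inducible factor (HIF). Genes were chosen by name, through the gene name printed for each probe, and earlier results of these data were known when they were chosen. All 39 were on the array, with 68 probes, and 38 passed the filter on dim probes. The exception was Car12, a membrane carbonic anhydrase, whose 2 probes were well above background on 0 and 1 of the 16 arrays.

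Every tumour was a B16-BL6 melanoma, an invasive line of the B16 mouse melanoma, carried by a male C57BL/6J mouse of 8 weeks. The control tumours received neither agent, the ALA tumours received 5-aminolevulinic acid (ALA, the precursor of heme and of the photosensitiser protoporphyrin IX) at 50 mg per kg, the X-ray tumours received fractionated X-rays, and the ALA plus X-ray tumours received the same dose of ALA locally before the fractionated X-rays. Each group held 4 tumour preparations, each hybridised to 1 array with a single dye. The labels do not say whether 1 mouse carried more than 1 of the tumours, so p-values measure the spread between these preparations, which may be technical in part.

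HIF is a transcription factor whose alpha subunit is hydroxylated by prolyl hydroxylases when oxygen is plentiful and then destroyed through the von Hippel-Lindau protein. When oxygen falls the alpha subunit persists, pairs with Arnt and switches on genes for blood vessel growth, pH control, mitophagy, collagen modification and glucose use. Glycolytic enzymes are among its classical targets, but their basal level in tumour cells is high, since they also serve growth without hypoxia. The array measures RNA, so it holds no information on the stability of the HIF proteins.

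The letters by which HIF recognises DNA were looked for first, because the search uses no expression value. Most members were listed as targets of hypoxia or are classical targets of HIF. A high share among them therefore follows in part from the choice of genes and is not separate evidence. RefSeq promoter windows (GRCm38.p6) were found for 35 of the 39 members. The 5-letter core of the hypoxia response element (ACGTG or GCGTG, read on both strands, so that CACGT and CACGC count too) lay within 250 bases before the start of transcription in 31 of these 35 genes, or 88.6%. Over all 27025 genes of the table the share was 41.5%. By class it was 12 of 15 glycolytic enzymes, 5 of 5 transporters and regulators, 13 of 14 other targets with a window and 1 of 1 HIF subunits. Counted by window, the share was 76.9% of 52 windows for the members and 38.6% of 32851 windows for all genes. A letter match is a description and not a bound site, and genes with several start sites had several chances to hold one. The most in 1 window were 5, in Bnip3 and in the first of 2 Ldha windows, where the palindrome CACGTG counts as 2 overlapping cores, 1 on each strand. Base composition of the windows differs between genes, and its part in these shares was not tested. Windows of 4 genes whose values are described below are printed 5′ to 3′ along the gene, with every core in capitals: Ero1a and Pfkp with 3 cores each, Car9 with 1 core close to the start, and Eno2, the enzyme with the clearest change, with none.
Ero1a (chr14:45318573-45318822, minus strand): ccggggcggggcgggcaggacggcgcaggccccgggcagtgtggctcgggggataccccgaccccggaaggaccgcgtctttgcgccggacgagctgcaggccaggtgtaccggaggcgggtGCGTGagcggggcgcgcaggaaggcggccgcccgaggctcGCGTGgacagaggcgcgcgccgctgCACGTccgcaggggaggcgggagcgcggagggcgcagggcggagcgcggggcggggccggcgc
Pfkp (chr13:6648772-6649021, minus strand): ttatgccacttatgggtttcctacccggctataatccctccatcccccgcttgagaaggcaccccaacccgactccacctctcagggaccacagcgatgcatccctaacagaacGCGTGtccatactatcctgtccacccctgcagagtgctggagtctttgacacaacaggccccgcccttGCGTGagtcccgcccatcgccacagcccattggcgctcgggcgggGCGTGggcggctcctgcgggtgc
Car9 (chr4:43506776-43507025, plus strand): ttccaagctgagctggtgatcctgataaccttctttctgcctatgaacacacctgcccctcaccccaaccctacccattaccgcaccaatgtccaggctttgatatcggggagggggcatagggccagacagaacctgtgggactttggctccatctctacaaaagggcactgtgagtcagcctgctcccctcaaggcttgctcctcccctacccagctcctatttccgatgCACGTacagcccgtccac
Eno2 (chr6:124769674-124769923, minus strand): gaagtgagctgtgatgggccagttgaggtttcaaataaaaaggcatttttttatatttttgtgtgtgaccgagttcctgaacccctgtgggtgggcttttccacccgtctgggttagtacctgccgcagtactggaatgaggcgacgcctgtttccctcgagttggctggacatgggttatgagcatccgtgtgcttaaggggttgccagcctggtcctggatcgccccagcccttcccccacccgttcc

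Values are given throughout as log2 of the processed signal minus the 75th percentile of the array, so 0 is the level of the 75th percentile. They compare one probe between arrays, never one gene with another. The 75th percentile of the raw signal lay between 213 and 521, the share of spots flagged as well above background was 44.3% to 53.6%, and no spot (0) was saturated. All 8 melanocyte markers passed the filter, and their summed level (the sum of the linear values over the array's 75th percentile) was 923 to 1298 over the 16 arrays. Each of the 4 slides carried 1 array of each group and corresponded to the replicate number on all 16 arrays. Position on the slide followed the treatment, so position and treatment cannot be told apart. A change was called at a limma adjusted p under 0.05, adjusted over the 15399 genes tested. In bulk tumours, fewer cells of a type and less RNA per cell cannot be told apart.

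After X-rays alone, 5 of 15 glycolytic enzymes and 2 of 16 detected other hypoxia targets passed the test, all higher than in control tumours. Over all genes 1.99% were called higher. Scaling by the median left 1 member called and 28 of all genes, and without any of several single tumours no member passed, as given below. The difference between the classes was not tested. The median log2 fold change of X-ray against control was 0.84 over the 16 detected targets and 0.40 over the 15 enzymes, against -0.02 over all genes. All 15 enzymes and 15 of the 16 targets lay above 0, as did 47.3% of all genes. The enzymes above 0 were 14 with quantile scaling and with the authors' values, where Aldoa was at 0, and 14 with a normexp background, where Pfkm was below 0. With ALA alone the medians were 0.55 and 0.18, against 0.00 over all genes. Between ALA plus X-ray and X-ray tumours they were -0.51 and -0.33, against -0.08. Against control, tumours given both agents stood at 0.27 and 0.06. These comparisons share arrays, so their values stand side by side and are not separate evidence.

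The level of each list on each array shows how evenly the tumours of a group behaved. This level is the median over the genes of the difference from the control mean. For the other hypoxia targets it was 0.10, 0.20, 0.17 and -0.54 in the control tumours and 0.94, -0.33, 1.07 and 0.60 in the ALA tumours. It was 0.91, 0.89, 0.59 and 0.87 in the X-ray tumours and -0.29, 0.32, 0.43 and 0.66 in the ALA plus X-ray tumours. The X-ray group was the even one, while control tumour 4, ALA tumour 2 and ALA plus X-ray tumour 1 each stood below the rest of their group. For the enzymes the levels were 0.06, 0.17, -0.04 and -0.18 in control, 0.29, -0.03, 0.28 and 0.25 with ALA, 0.43, 0.34, 0.26 and 0.45 with X-ray, and 0.25, -0.12, 0.16 and -0.10 with both. The enzymes spanned a narrower range, and control tumour 4 and ALA tumour 2 were the lowest of their groups here too.

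**Figure D1:**
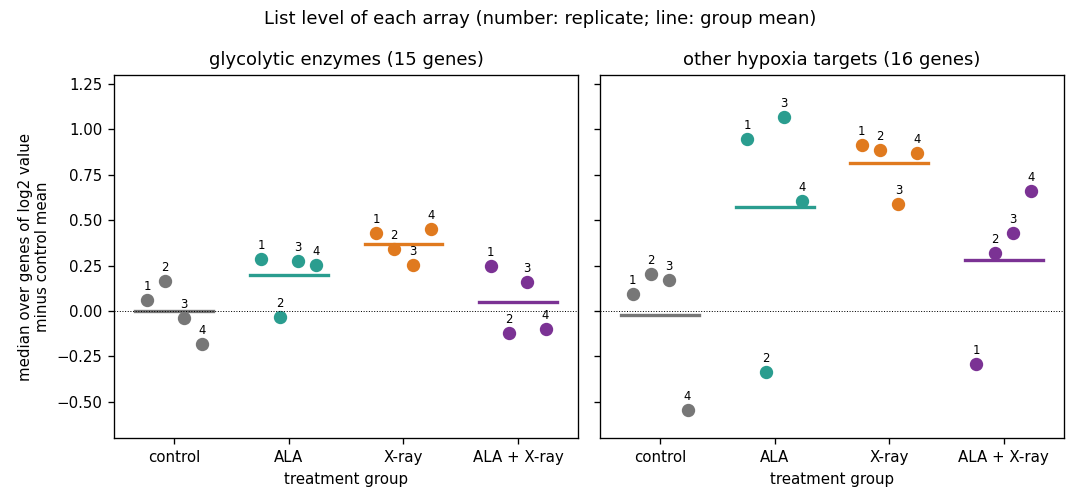
Each point is 1 array, numbered by replicate. The vertical axis is the median over the genes of a list of the log2 value minus the control mean, and the line is the group mean. The 4 X-ray tumours lie between 0.59 and 0.91 for the other hypoxia targets, while control tumour 4 (-0.54), ALA tumour 2 (-0.33) and ALA plus X-ray tumour 1 (-0.29) lie below the rest of their groups.

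The low tumours were low in nearly every target. They were picked by the median of these same targets, so high counts among the targets follow in part from that choice. Control tumour 4 was the lowest control in 16 of 16 targets and 12 of 15 enzymes, against 27.2% of all genes. ALA tumour 2 was the lowest ALA tumour in 16 of 16 targets and 14 of 15 enzymes, against 22.6% of all genes. ALA plus X-ray tumour 1 was lowest in 15 of 16 targets but in 1 of 15 enzymes, against 22.8% of all genes. In the combined group the enzymes did not share the low tumour of the targets. The median standard deviation of a target within a group was 0.37 in control, 0.64 in ALA, 0.19 in X-ray and 0.42 in doubly treated tumours, where all genes had 0.19, 0.22, 0.25 and 0.33. For an enzyme it was 0.20, 0.22, 0.16 and 0.25.

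**Figure D2:**
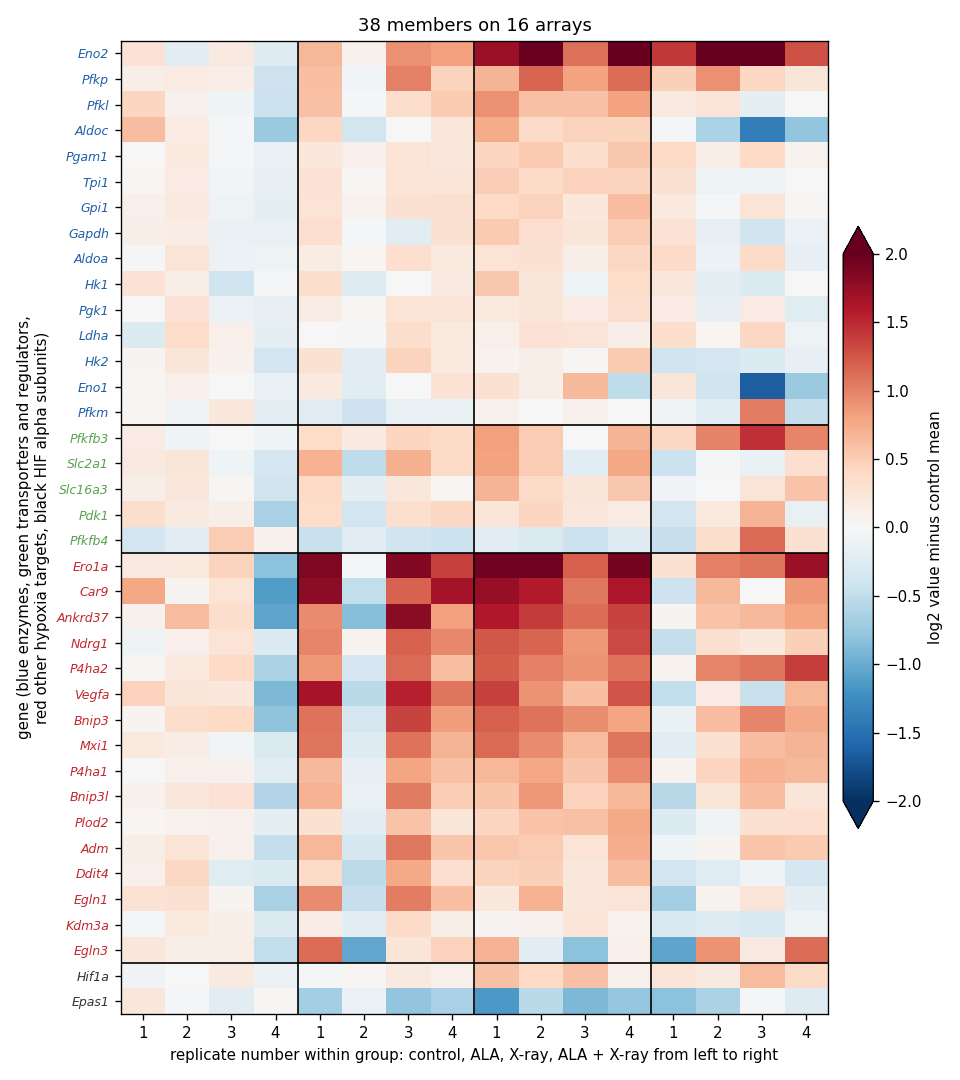
Rows are the 38 detected members, ordered within each class by the X-ray fold change, and columns are the 16 arrays. Colour is the log2 value minus the control mean, cut at -2 and 2. The columns of control tumour 4, ALA tumour 2 and ALA plus X-ray tumour 1 are pale or blue through the block of other hypoxia targets, where the 4 X-ray columns are red except for Egln3.

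Markers of other cells also differed between these tumours. The summed level of 12 macrophage and monocyte markers was 111 in control tumour 4, the highest control value, and 39.1 in ALA tumour 2, the highest ALA value. The summed level of 4 erythroid markers was 698 in ALA tumour 2, where the ALA group ran from 280 to 698. ALA plus X-ray tumour 1 had the lowest macrophage sum of its group, 148, and the lowest sum of 14 skeletal muscle markers, 14.4. The part of these cells in the low target levels was not tested.

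X-ray against control asks what irradiation alone did. It called 7 members higher, while 1.99% of all genes were called higher, and 1 member lower, while 1.38% of all genes were called lower. At an unadjusted p under 0.05 there were 22 of 38 members and 21.9% of all genes. The 7 were 5 enzymes (Eno2, Pfkp, Pfkl, Pgam1, Tpi1) and 2 other targets (Ndrg1, Ero1a), and the gene that fell was Epas1. None of the 5 transporters and regulators was called.

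Eno2 encodes enolase 2, the neuronal form of the enzyme that makes phosphoenolpyruvate. It read -0.44, -0.94, -0.55 and -0.99 in the control tumours and -0.07, -0.65, 0.19 and 0.10 with ALA. It read 0.99, 1.25, 0.37 and 1.38 with X-ray and 0.69, 1.43, 1.35 and 0.55 with both. Every irradiated tumour, with or without ALA, lay above every unirradiated one. Eno2 was 3.31-fold higher in X-ray than in control tumours (log2 1.73 ± 0.26 SE, limma adjusted p 0.0143) and higher within each of the 4 slides. Its second probe gave a log2 difference of 1.70.

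Phosphofructokinase makes the committed step of glycolysis, and 2 of its 3 isoforms rose. Pfkp, the platelet isoform, read 2.10, 2.15, 2.11 and 1.57 in control and 2.66, 3.14, 2.78 and 3.11 in X-ray tumours. The groups did not overlap, and the rise was 1.92-fold (log2 0.94 ± 0.22, adjusted p 0.0351). Pfkl, the liver isoform, read 4.23, 3.88, 3.71 and 3.37 in control and 4.71, 4.38, 4.38 and 4.60 in X-ray tumours, which again did not overlap. It was 1.65-fold higher (log2 0.72 ± 0.18, adjusted p 0.048). Pfkm, the muscle isoform, had a log2 difference of 0.04 (adjusted p 0.94) that turned negative with a normexp background. Its value in ALA plus X-ray tumour 3, 4.61, accompanied the highest muscle marker sum of all arrays, 1221.

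Lower in the pathway, Tpi1 (triose phosphate isomerase) read 7.58, 7.71, 7.49 and 7.38 in control and 8.03, 7.93, 8.00 and 7.99 in X-ray tumours. Pgam1 (phosphoglycerate mutase) read 6.88, 7.09, 6.85 and 6.74 in control and 7.32, 7.41, 7.25 and 7.44 in X-ray tumours. In both genes the lowest X-ray tumour exceeded the highest control. The rises were small in size: 1.36-fold for Tpi1 (log2 0.45 ± 0.11, adjusted p 0.047) and 1.38-fold for Pgam1 (log2 0.46 ± 0.11, adjusted p 0.0364).

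The remaining enzymes had log2 differences of 0.04 to 0.51 and did not pass. Aldoc had 0.51, Gpi1 0.42, Aldoa 0.28, Hk1 0.26 and Eno1 0.14. Gpi1 read 7.69 to 8.07 in control and 8.09 to 8.49 in X-ray tumours, without overlap. The other Hk1 probes gave 0.29 to 0.76. Gapdh, the dehydrogenase often used as a loading reference, read 8.43, 8.46, 8.17 and 8.16 in control and 8.82, 8.65, 8.55 and 8.81 in X-ray tumours. Its X-ray values all lay above the controls, with a log2 difference of 0.40 ± 0.16 (adjusted p 0.161). Hexokinase 2 (Hk2), which traps glucose in the cell, was 5.25 ± 0.27 in control and 5.43 ± 0.23 in X-ray tumours (SD, n = 4, limma adjusted p 0.562). Lactate dehydrogenase A (Ldha) was 7.42 ± 0.30 and 7.61 ± 0.09 (SD, n = 4, limma adjusted p 0.501). Its second probe gave a log2 difference of -0.03. Phosphoglycerate kinase (Pgk1) was 7.87 ± 0.20 and 8.10 ± 0.08 (SD, n = 4, limma adjusted p 0.309). The Pgk1 value is uncertain, since the array annotation (mm9) places both its probes on chromosome 3 while RefSeq has the gene on the X chromosome, so a near-identical copy may contribute.

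Among the genes that feed and steer glycolysis, Slc2a1, the main glucose importer, read 5.25, 5.32, 4.98 and 4.74 in control and 5.88, 5.59, 4.85 and 5.85 in X-ray tumours. X-ray tumour 3 lay among the controls, and the log2 difference was 0.47 ± 0.29 (adjusted p 0.365). The kinase Pdk1, which keeps pyruvate out of the mitochondria, differed by 0.27 ± 0.25 (adjusted p 0.574), with a 95% interval of -0.27 to 0.81. Slc16a3, which exports lactate, had 0.46 and Pfkfb4, a regulator of phosphofructokinase, -0.30, neither called.

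Of the other hypoxia targets, Ndrg1, a cytoplasmic protein induced by hypoxia and other stress, read 3.33, 3.53, 3.70 and 3.15 in control and 4.67, 4.59, 4.30 and 4.75 in X-ray tumours. The groups were wide apart, and Ndrg1 was 2.22-fold higher (log2 1.15 ± 0.25, adjusted p 0.0289). Ero1a, the oxidase that renews protein disulfide isomerase in the endoplasmic reticulum, read 2.82, 2.85, 3.09 and 1.83 in control and 4.58, 4.59, 3.84 and 4.55 in X-ray tumours. It was 3.35-fold higher (log2 1.74 ± 0.41, adjusted p 0.0368), with X-ray tumour 3 the lowest of its group and still above every control. Its promoter window, printed above, holds 3 cores, and that of Eno2 none.

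Car9 and Vegfa had large fold changes and widely spread control values, and did not pass the threshold. Car9, the carbonic anhydrase that acidifies the outside of hypoxic cells, read 3.02, 2.30, 2.52 and 1.13 in control and 3.99, 3.82, 3.29 and 3.85 in X-ray tumours. All X-ray values were the higher ones, with a log2 difference of 1.50 ± 0.48 (adjusted p 0.094). Vegfa, the growth factor of blood vessels, read 3.13, 2.91, 2.88 and 1.77 in control and 4.04, 3.58, 3.27 and 3.92 in X-ray tumours. There too the groups did not overlap, and the difference was 1.03 ± 0.44 (adjusted p 0.191). Bnip3, a receptor for mitophagy, was 4.18 ± 0.56 in control and 5.19 ± 0.18 in X-ray tumours (SD, n = 4, limma adjusted p 0.115).

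The other targets followed by role. Ankrd37, a hypoxia-induced ankyrin repeat protein, had 1.37 (adjusted p 0.101). The collagen hydroxylases P4ha2 and P4ha1 had 1.05 and 0.74 (adjusted p 0.0825 and 0.0526), and the lysyl hydroxylase Plod2 had 0.58 (0.076). Mxi1, an antagonist of Myc, had 0.95 (0.0705) and the mitophagy receptor Bnip3l 0.64 (0.197). The vasodilator peptide Adm had 0.51 and the mTOR inhibitor Ddit4 0.44. The histone demethylase Kdm3a, at 0.12, and the prolyl hydroxylases Egln1, at 0.35, and Egln3, at -0.06 (95% interval -1.12 to 0.99), were nearest to 0 among the targets. Egln3 is a classical HIF target, but its X-ray values ran from -2.08 to -0.56 and spanned those of the controls, and its difference was positive with a normexp background.

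The 2 HIF alpha subunits went opposite ways. Epas1, which encodes the HIF-2 alpha subunit and is strong in endothelium, read 3.87, 3.63, 3.43 and 3.67 in control and 2.50, 3.12, 2.75 and 2.88 in X-ray tumours. It was 1.79-fold lower (log2 -0.84 ± 0.20, adjusted p 0.0351), with no overlap. Endothelial markers moved with it: 6 of 7 detected markers were below 0 in this comparison and 1 was called lower, with a median of -0.51, while their summed level was 15.6 to 21.1 in control and 15.0 to 18.3 in X-ray tumours, and their part in the Epas1 result was not tested. The other 2 Epas1 probes, well above background on 1 and 5 arrays, gave 0.32 and 0.50, and with the mean of its detected probes the difference was -0.17 and the call was lost. Hif1a read 2.65, 2.72, 2.89 and 2.60 in control and 3.30, 3.12, 3.30 and 2.82 in X-ray tumours, a log2 difference of 0.42 ± 0.13 (adjusted p 0.0899).

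**Figure D3:**
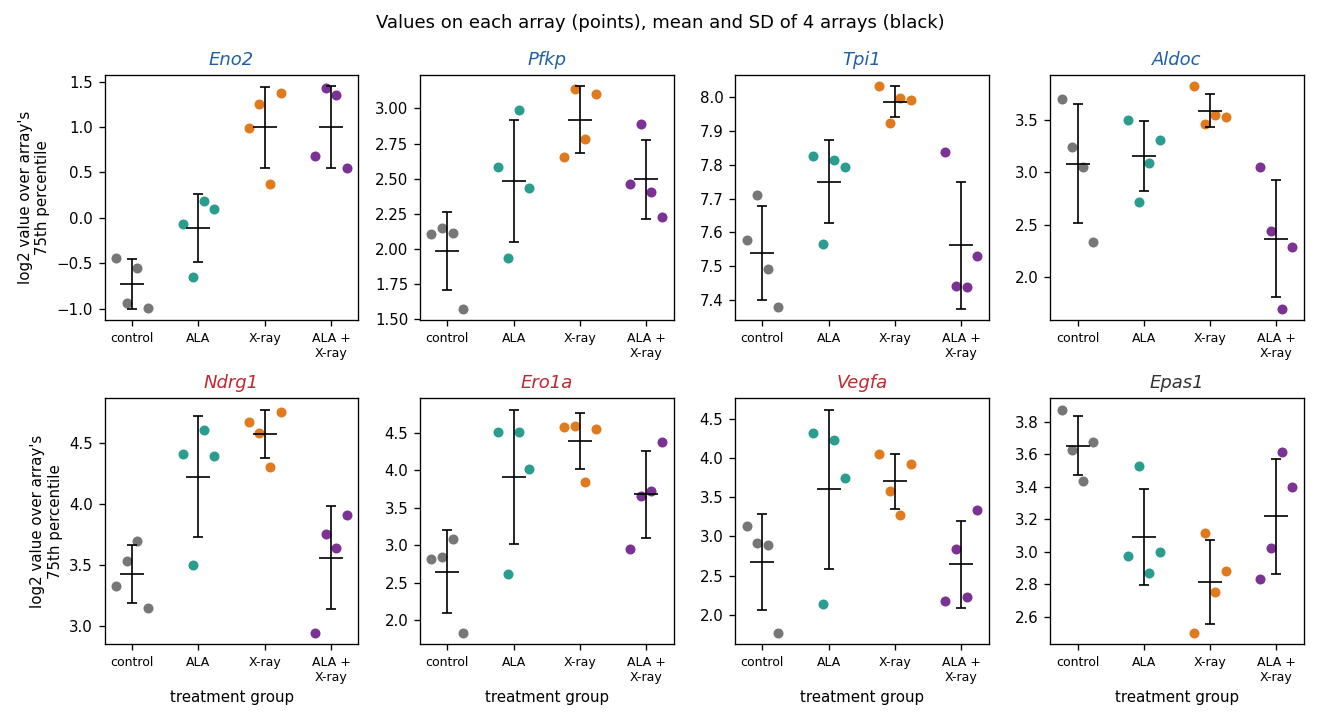
Points are the log2 values of 8 members on each of the 16 arrays, over the array's 75th percentile. The black bar and whiskers are the mean and SD of the 4 arrays of a group. Eno2 reads about as high in ALA plus X-ray as in X-ray tumours, while Tpi1, Aldoc, Ndrg1 and Vegfa are lower there, and Epas1 is lowest after X-ray alone.

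The calls of this comparison were near the threshold. With the slide as a block, 4 of the 8 remained (Eno2, Ndrg1, Pfkl and Epas1, adjusted p 0.0319 to 0.0479), and Pfkp, Pgam1, Ero1a and Tpi1 had 0.0527 to 0.0583. All 8 differences had the same sign within each of the 4 slides, where the median of the other targets was 0.79, 0.67, 0.48 and 1.31 and that of the enzymes 0.31, 0.19, 0.38 and 0.65. The count fell from 8 to 0 when any of control tumours 2 and 4 and X-ray tumours 1, 2 and 4 was left out, which also reduced the calls over all genes from 519 to between 1 and 11. It was 2 without control tumour 1, control tumour 3 or ALA tumour 4, 3 without ALA tumour 1, 14 without ALA tumour 2 and 12 without ALA plus X-ray tumour 1. In the same order these fits called 158, 242, 268, 309, 531 and 1087 of all genes. Scaling by the median left 1 member, Eno2, and 28 genes. With the mean of a gene's probes Tpi1 had an adjusted p of 0.089, in a range of 0.0193 to 0.368. Without control tumour 4 the medians of the targets and enzymes were 0.70 and 0.26.

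Markers of stromal and blood cells accompanied the X-ray group as well. All 12 macrophage and monocyte markers were below 0, with a median of -1.13 and 0 calls, and their summed level was 61.6 to 111 in control and 18.9 to 104 in X-ray tumours. All 4 erythroid markers were above 0, with sums of 60.1 to 173 and 26.1 to 819. Their part in the rise of the members was not tested. With the skeletal muscle level as a covariate 9 members and 850 of all 15399 genes were called, beside 8 and 519 without it.

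**Figure D4:**
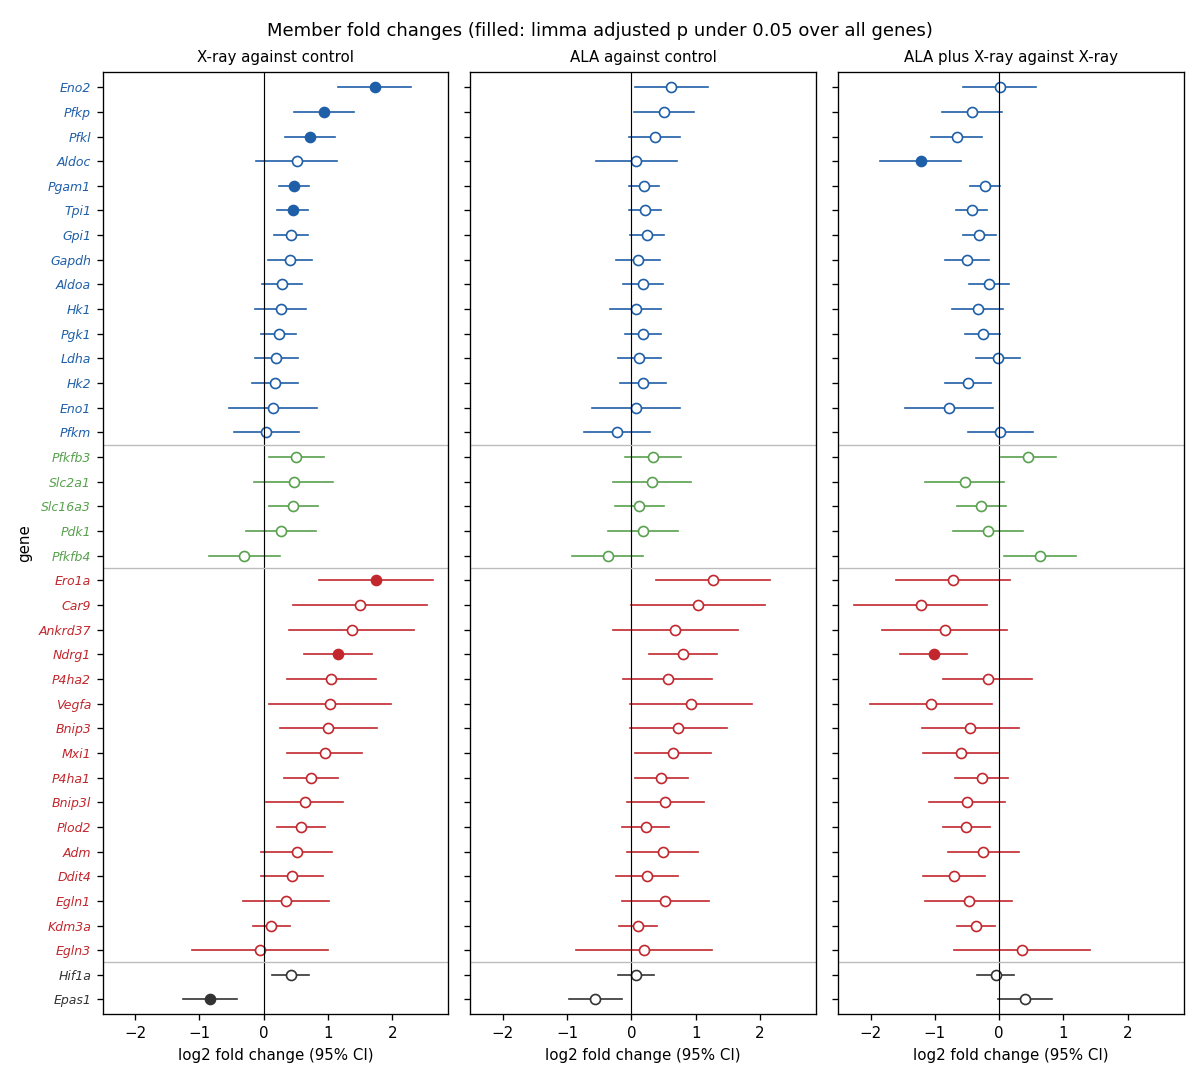
Points are log2 fold changes of the 38 detected members with 95% confidence intervals, and filled points passed a limma adjusted p of 0.05 over all genes. In X-ray against control the genes lie right of 0 except Pfkfb4, Egln3 (right of 0 with a normexp background) and Epas1, none of ALA against control is filled, and Aldoc and Ndrg1 are filled to the left of 0 between ALA plus X-ray and X-ray tumours.

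ALA against control asks what ALA did without X-rays, and no member was called in a comparison that called 0% of all genes. At an unadjusted p under 0.05 there were 7 of 38 members and 6.24% of all genes. The differences of the targets were nonetheless of some size: 16 of 16 lay above 0, where all genes had 49.6% above 0. Of the enzymes 14 of 15 lay above 0. Scaling by the median, which moved the median of all genes by -0.12 in this comparison, left 15 of 16 targets and 10 of 15 enzymes above 0, with Gapdh, Hk1, Aldoc, Eno1 and Kdm3a turning negative, and Hif1a too.

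Ero1a came closest in size, at 4.51, 2.62, 4.50 and 4.02 in the ALA tumours. Tumours 1, 3 and 4 lay above every control and tumour 2 among them, which gave a log2 difference of 1.27 ± 0.41 (adjusted p 0.755). Vegfa read 4.31, 2.13, 4.22 and 3.74 with ALA, a difference of 0.93 ± 0.44 (adjusted p 0.797). Car9 read 4.03, 1.75, 3.42 and 3.91, a difference of 1.04 ± 0.48 (adjusted p 0.796). In both, tumour 2 was the low one and the other 3 reached or passed the X-ray range. Ndrg1 read 4.41, 3.50, 4.61 and 4.39, with the same low tumour, and differed by 0.80 ± 0.25 (adjusted p 0.755).

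Within slides the median of the targets was 0.85, -0.54, 0.93 and 1.17 for ALA against control, and that of the enzymes 0.18, -0.22, 0.36 and 0.44, with slide 2, that of ALA tumour 2, the exception in sign. Leaving out ALA tumour 2 moved the median of the targets from 0.55 to 0.86, and leaving out control tumour 4 moved it to 0.34. No member was called in any of the 20 fits that left out an array or a slide. Slc2a1 (0.32 ± 0.29), Hk2 (0.18 ± 0.17), Pgk1 (0.18 ± 0.13), Ldha (0.12 ± 0.16), Gapdh (0.11 ± 0.16), Pdk1 (0.18 ± 0.25) and Hif1a (0.07 ± 0.13) had small differences (SE, limma adjusted p 0.823 to 0.933). Bnip3 differed by 0.73 ± 0.35 and Egln3 by 0.20 ± 0.49, while Epas1 was at -0.56 ± 0.20 (adjusted p 0.755). Macrophage and monocyte markers were all 12 below 0 with ALA (median -1.85, summed level 12.3 to 39.1), and the 4 erythroid markers all above 0 (median 2.28, summed level 280 to 698). All 8 fibroblast markers were below 0 (median -0.98), 13 of 14 muscle markers were below 0 (median -2.36), and both detected neutrophil markers were above 0 (median 2.61), with 0 called. Their part was not tested.

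ALA plus X-ray against X-ray asks what ALA changed in irradiated tumours. It called 0 members higher, where 1.3% of all genes were called higher, and 2 lower, where 0.766% of all genes were. At an unadjusted p under 0.05 there were 16 of 38 members and 23.2% of all genes. The 2 were Aldoc, an enzyme, and Ndrg1. Of the 16 targets 1 lay above 0 and of the 15 enzymes 2, beside 40.4% of all genes.

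Aldoc, the brain isoform of aldolase, read 3.82, 3.46, 3.55 and 3.53 in X-ray tumours and 3.06, 2.44, 1.70 and 2.29 in ALA plus X-ray tumours. The groups did not overlap, and Aldoc was 2.33-fold lower (log2 -1.22 ± 0.29, adjusted p 0.0473). Its second probe gave -0.84. Ndrg1 read 2.94, 3.75, 3.64 and 3.91 in ALA plus X-ray tumours, all below the X-ray range and close to the controls. It was 2.02-fold lower than in X-ray tumours (log2 -1.02 ± 0.25, adjusted p 0.0474).

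The other named members lay lower without passing. Car9 read 1.83, 2.88, 2.23 and 3.11 with both agents, below every X-ray tumour, a log2 difference of -1.22 ± 0.48 (adjusted p 0.158). Vegfa read 2.17, 2.84, 2.23 and 3.34, a difference of -1.06 ± 0.44 (adjusted p 0.176). In Vegfa tumour 4 overlapped the X-ray range. The other Vegfa probes gave -1.13, -1.06 and -0.43. Gapdh differed by -0.50 ± 0.16 (adjusted p 0.0966), Hk2 by -0.48 ± 0.17 (0.118), Slc2a1 by -0.54 ± 0.29 (0.272) and Pgk1 by -0.25 ± 0.13 (0.247). Eno2 (0.01 ± 0.26), Pfkm (0.02 ± 0.24), Ldha (-0.02 ± 0.16) and Hif1a (-0.05 ± 0.13) were nearest to 0. The Ldha value depended on the probe: its second probe, above background on all 16 arrays, gave -0.56. Ldha turned positive with quantile scaling, a normexp background and the authors' values and Eno2 and Pfkm turned negative with median scaling. Ero1a (-0.71 ± 0.41), Bnip3 (-0.45 ± 0.35) and Pdk1 (-0.17 ± 0.25) were lower without passing, and Egln3 (0.35 ± 0.49) and Epas1 (0.40 ± 0.20) were higher without passing.

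Both calls were close to the threshold and were shared with large changes in cell type markers. All 12 macrophage and monocyte markers were higher in ALA plus X-ray than in X-ray tumours, 6 of them called, with sums of 148 to 280 against 18.9 to 104. All 8 fibroblast markers were higher, with 0 called and sums of 59.7 to 421 against 29.3 to 69.2, and 13 of 14 skeletal muscle markers were higher, with sums of 14.4 to 1221 against 21.0 to 48.9. The 4 erythroid markers were lower, at 23.4 to 54.7 against 26.1 to 819, and the melanocyte sum was 923 to 1298 against 1116 to 1278. With the muscle level as a covariate both calls were lost (adjusted p 0.0948 for each), and the part of the other cell types was not tested. With the slide as a block Aldoc passed (adjusted p 0.0418) and Ndrg1 had 0.0597. Over all alternatives the adjusted p ran from 0.00636 to 0.361 for Aldoc and from 0.027 to 0.364 for Ndrg1. The count was 0 in 13 of the 20 fits that left out an array or a slide, among them those without control tumours 2 and 3, ALA tumours 1 and 4, X-ray tumours 2, 3 and 4, or ALA plus X-ray tumours 2, 3 and 4. It was 1 without control tumour 1 or 4 or ALA tumour 3, and 8 without ALA plus X-ray tumour 1. In that last fit the calls over all 15399 genes rose too, from 318 to 3135. The 13 fits with 0 called members called 0 to 124 of all genes, and those with 1 called 102 to 278. Both genes were lower within each slide, where the median of the targets was -1.24, -0.63, -0.06 and -0.40 and that of the enzymes -0.20, -0.42, -0.19 and -0.58.

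ALA plus X-ray against control and against ALA complete the pairs of groups. Against control 2 members rose, Eno2 and Pfkfb3, where 9.77% of all genes were called higher, and 0 fell, where 15.1% of all genes were called lower. Against ALA the same 2 rose, where 10.7% of all genes were called higher, and 0 fell, where 13.4% were. Both comparisons share the ALA plus X-ray arrays. At an unadjusted p under 0.05 there were 10 of 38 members against control and 11 against ALA, where all genes had 39.9% and 39.6%.

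Eno2 was 3.32-fold higher than in control (log2 1.73 ± 0.26, adjusted p 0.00209) and 2.16-fold higher than in ALA tumours (log2 1.11 ± 0.26, adjusted p 0.0114), and the groups did not overlap. Pfkfb3, which makes the strongest activator of phosphofructokinase, read 1.80, 1.56, 1.65 and 1.55 in control, 2.00, 1.82, 2.06 and 2.01 with ALA, 2.46, 2.15, 1.64 and 2.32 with X-ray, and 2.05, 2.63, 3.10 and 2.61 with both. Its 3 highest values all came from the combined group, whose tumour 1 stayed within the ALA range. It was 1.95-fold higher than in control (log2 0.96 ± 0.20, adjusted p 0.00715) and 1.54-fold higher than in ALA tumours (log2 0.62 ± 0.20, adjusted p 0.0382). Both calls depended on the probe. The probe used was above background on 16 arrays and the other 2 on 4 and 2, and with the mean of the probes the differences were 0.69 against control (adjusted p 0.107) and 0.12 against ALA (adjusted p 0.792). Over all alternatives the adjusted p ran from 7e-04 to 0.113 against control and from 0.00427 to 0.792 against ALA. The second was 0.0588 with the slide as a block and 0.233 with the muscle level as a covariate. With that covariate the Eno2 call against ALA was lost too (adjusted p 0.0663, in a range of 0.00545 to 0.112). Against control 9 members were called without ALA plus X-ray tumour 1 and 5 without ALA tumour 2. Calls over all 15399 genes were 5953 and 3631 in these fits, beside 3828 with all arrays. Against ALA there were 8 without ALA tumour 2, 6 without ALA plus X-ray tumour 1, 4 without control tumour 4, and 1 without any of the other 3 tumours of either group. The fits with 8, 6 and 4 called members called 2882, 5817 and 3328 of all genes, beside 3713 with all arrays. Those with 1 called 2165 to 2779. Of the named targets, 3 stood near control: Vegfa at -0.03 ± 0.44, Ndrg1 at 0.13 ± 0.25 and Car9 at 0.27 ± 0.48. The Vegfa value depended on the probe, and its other probes gave 0.20, -0.13 and 0.75. Ero1a, at 2.95, 3.66, 3.72 and 4.37 in ALA plus X-ray tumours, kept a difference of 1.03 ± 0.41 (adjusted p 0.0797).

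Cell type markers differed widely in the same comparisons. Against ALA, 12 of 12 macrophage and monocyte markers and 7 of 8 fibroblast markers were called higher, with medians of 3.47 and 2.35, and 3 of 4 erythroid markers were called lower, with a median of -3.34. Against control, 4 of 12 macrophage markers were called higher, with a median of 1.53, and of 2 detected neutrophil markers 1 was called higher, with a median of 3.27. All 8 fibroblast markers were above 0 against control (median 1.49, 0 called), and 13 of 14 muscle markers were above 0 in both comparisons (medians 3.77 against ALA and 1.36 against control, 0 called). Their part in the Eno2 and Pfkfb3 results was not tested, except for the muscle level above.

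Among the fixed enzymes and regulators, Gapdh (-0.10 ± 0.16), Pgk1 (-0.02 ± 0.13), Ldha (0.18 ± 0.16), Slc2a1 (-0.07 ± 0.29), Hk2 (-0.30 ± 0.17) and Pdk1 (0.09 ± 0.25) did not pass against control. The second Ldha probe gave -0.59. The signs of Gapdh, Pgk1, Slc2a1 and Vegfa turned with a normexp background. Hif1a was higher in all 4 ALA plus X-ray tumours than in any control, at 2.98, 2.90, 3.36 and 3.09 (log2 0.37 ± 0.13, adjusted p 0.0575). Epas1 was at -0.43 ± 0.20 (adjusted p 0.112), Bnip3 at 0.56 ± 0.35 (0.255) and Egln3 at 0.29 ± 0.49 (0.704).

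The interaction tests whether ALA made a different change in irradiated than in unirradiated tumours. It called 1 member lower, Ndrg1, where 0.331% of all genes were called lower, and 0 higher, where 0.896% were. At an unadjusted p under 0.05 there were 24 of 38 members and 19.1% of all genes. In Ndrg1 the difference made by ALA was 0.80 without X-rays and -1.02 with them, an interaction of -1.82 ± 0.35 (adjusted p 0.0295). Tpi1 (-0.64 ± 0.16, adjusted p 0.0648) and Pfkl (-1.02 ± 0.26, adjusted p 0.0662) came next.

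Apart from Ndrg1, no member of either class passed the test of the interaction. Its sign is given as a count and was not tested for a list. The interaction was below 0 in 15 of 16 targets, with a median of -1.02, and in 14 of 15 enzymes, with a median of -0.61, while all genes had 40.9% above 0 and a median of -0.10. The enzyme median was -0.34 with quantile scaling and with the authors' values, and -0.37 without slide 4. The exceptions were Egln3, which fell below 0 with a normexp background, and Pfkm. The largest negative values were those of Car9 (-2.26), Vegfa (-1.99) and Ero1a (-1.98), with adjusted p of 0.106, 0.12 and 0.0984. In the transporters and regulators 3 of 5 lay below 0, and Epas1 was at 0.97 (adjusted p 0.092). The interaction is built from all 4 groups, so the low control and ALA tumours enter it: without ALA tumour 2 it called 12 members, 11 of them lower, without ALA plus X-ray tumour 1 it called 7, and without control tumour 1 it called 2. Calls over all 15399 genes were 400, 1065 and 134 in these fits, beside 189 with all arrays. Without any other single tumour except X-ray tumour 1 it called 0 members and 1 to 39 of all genes. Without control tumour 4 Ndrg1 was at -1.72 (adjusted p 0.0684). The Ndrg1 call was also lost with the slide as a block (0.06) and with the muscle level as a covariate (0.132), in a range of 0.00991 to 0.396. With the block 8 of all 15399 genes were called, and with the covariate 2. All 12 macrophage markers had an interaction above 0, with a median of 4.45 and 9 calls, and their part was not tested.

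**Figure D5:**
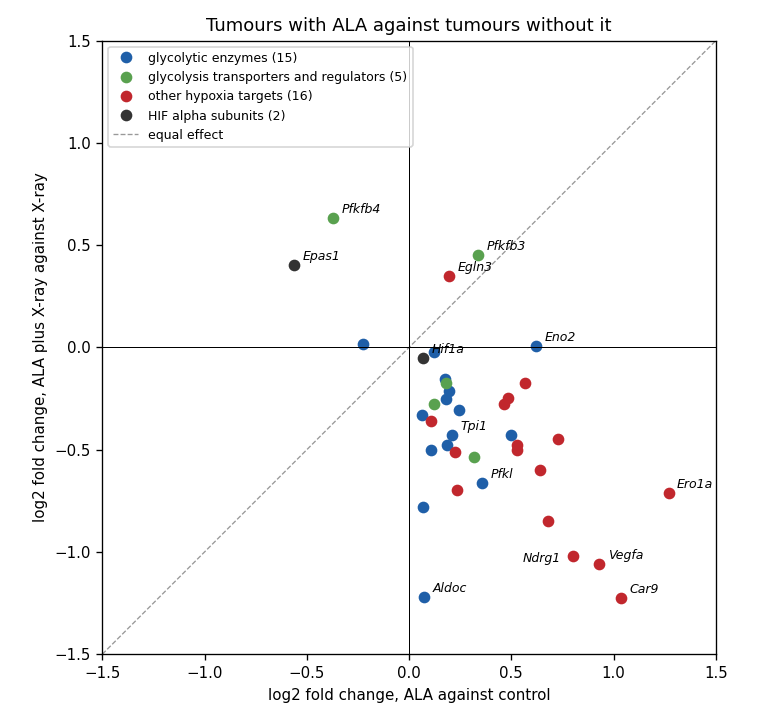
Each point is a detected member, placed by the log2 fold change of ALA against control and by that of ALA plus X-ray against X-ray, which share no arrays. The dashed line marks an equal difference in both. All but 1 of the other hypoxia targets, in red, lie right of 0 and below it, from 0.11 to 1.27 across and -0.18 to -1.22 down, and the exception is Egln3.

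Genes of the same pathways outside the set were looked up in 3 further lists. Of 30 other glycolysis and glucose genes, 2 rose and 0 fell in X-ray against control, where 1.99% of all genes rose and 1.38% fell. The list had a median of -0.02. The 2 were Gys1, glycogen synthase (log2 1.03 ± 0.25, adjusted p 0.041), and Pkm, pyruvate kinase (0.53 ± 0.14, adjusted p 0.0485). Pkm was also the list's 1 call between ALA plus X-ray and X-ray tumours, where it fell by 0.57 (adjusted p 0.0473), and its interaction was -0.88 (adjusted p 0.0422). Over all genes 0.766% and 0.331% were called lower there. Of the alternative fits, the Pkm fall was kept in 5 of 30, its interaction in 7 of 29 and its X-ray rise in 7 of 30. The Gys1 rise was kept in 14 of 30. Pkm catalyses the last step of glycolysis. Pdk4, a kinase of the pyruvate dehydrogenase complex that muscle uses in fasting, had large errors (2.19 ± 1.27 between ALA plus X-ray and X-ray tumours, adjusted p 0.312). Against control, ALA plus X-ray tumours had 3 rises and 5 falls in this list, led by Pygl, Pfkfb2 and Hk3 (log2 1.67, 0.72 and 2.03) and by Tigar, Slc2a3, Bpgm and Mpc1 (-0.89, -0.71, -0.61 and -0.54). Over all genes 9.77% were called higher and 15.1% lower, so the counts of this list were near those shares. Hk3 is a hexokinase of myeloid cells, and in the same comparison 4 of 12 macrophage markers were called higher. The part of these cells in the Hk3 rise was not tested. Against ALA, ALA plus X-ray tumours had 3 rises in the list, Hk3, Pygl and Pfkfb2 (2.93, 1.05 and 0.58). The 4 falls were Tigar, Bpgm, Tkt and Pgd (-0.72, -0.70, -0.51 and -0.49). Over all genes 10.7% rose and 13.4% fell in that comparison.

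Of 16 detected HIF pathway regulators, Siah2, a ubiquitin ligase that degrades prolyl hydroxylases, rose with X-ray (0.87 ± 0.20, adjusted p 0.0345), where 1.99% of all genes rose. Vhl, the von Hippel-Lindau factor that marks HIF for destruction, was at 0.77 ± 0.22 (adjusted p 0.0638). Arnt, the partner of the alpha subunits, was at 0.19 ± 0.14 (0.455) and Hif1an, the asparagine hydroxylase that blunts HIF, at 0.20 ± 0.15 (0.485). In ALA plus X-ray against control 1 of the list rose, Cited2 (0.68 ± 0.17, adjusted p 0.0152), which competes with HIF for its coactivator, and 2 fell, the prolyl hydroxylase Egln2 (-0.87) and Rbx1 (-0.49), a part of the ligase that holds Vhl. Over all genes 9.77% rose and 15.1% fell there. In ALA plus X-ray against ALA, Cited2 rose (0.74) and Ep300 fell (-0.58), where 10.7% of all genes rose and 13.4% fell. None of the list was called in the comparison of ALA with control, the interaction, or the comparison of ALA plus X-ray with X-ray.

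Of 32 further hypoxia-inducible genes, 24 lay above 0 in X-ray against control, with a median of 0.47. In this comparison 4 rose and 0 fell, where 1.99% of all genes rose and 1.38% fell. They were Higd1a, a mitochondrial survival factor (0.87 ± 0.20, adjusted p 0.0331), Selenbp1 (1.19), Fam162a (0.59) and Rcor2 (0.86). The same list had medians of 0.24 with ALA alone and -0.23 between ALA plus X-ray and X-ray tumours, with 0 calls in either. In ALA plus X-ray against control it had 3 rises, Insig2, Angptl4 and Loxl2 (0.81, 2.24 and 1.77), and 1 fall, the transferrin receptor Tfrc (-1.33). Over all genes 9.77% rose and 15.1% fell there. In ALA plus X-ray against ALA it had 4 rises, Tmem45a, Angptl4, Loxl2 and Insig2 (3.25, 1.93, 1.91 and 0.84). The 2 falls were Igfbp3 and Bhlhe40 (-0.95 and -0.54), where 10.7% of all genes rose and 13.4% fell. The list's median interaction was -0.61, with 21 of 32 below 0. Outside the comparison with ALA, the mean of a gene's probes lost the calls of Pkm, Higd1a, Rcor2, Rbx1, Pfkfb2, Bpgm, Mpc1 and Loxl2 named from these lists, at adjusted p of 0.0502 to 0.251. In ALA plus X-ray against ALA it lost those of Cited2, Pfkfb2 and Loxl2. With the muscle level as a covariate every call named there except Hk3 was lost, and 513 of all genes were called, beside 3713 without it. These lists were drawn up with earlier results of these data known, and their counts describe the pathways without testing them.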

How the data were processed

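RNA of 16 tumour preparations was labelled with Cy3 and hybridised to Agilent mouse arrays. The deposited scanner files hold spot intensity values: per the file headers they were made with Agilent Feature Extraction 10.7.3.1, while the submitters' processing notes name 9.5.3.1. Per the file headers the processed signal is background-subtracted, and each spot has other deposited values, quality flags of 0 or 1. The authors' deposited value table served as an alternative scaling, and on the log2 scale it had correlations of 0.992 to 1.00 with the scanner values. Its exact normalization is not given in the sources used here.

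Here log2 of the processed signal was taken minus each array's 75th percentile, control spots and outlier flags were left out, and spots of a probe were averaged. The probe of highest mean level stood for a gene. Genes had to be well above background on at least 4 of 16 arrays, which left 15399. Gene names came from the array files and were updated through RefSeq. A linear model over the 4 groups was fitted to all genes with limma 3.58.1 (R 4.3.3), and p-values were adjusted by Benjamini-Hochberg over all of them. The fit had 12 residual degrees of freedom, so the number of arrays limits the precision. It was tested on simulated data.

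The members, the other gene lists and the tests were chosen with earlier results of these data known. All 39 members are accounted for. Those that passed and 14 preset members get full statistics and the others their values. Outside the members, named are at most 4 passing genes of each other list in a direction and comparison, and Vhl, Arnt, Hif1an, Pkm and Pdk4. Alternatives were a normexp background (offset 50), quantile and median scaling, the authors' values, no filter and a strict one, the mean of a gene's probes, the slide as a block, the muscle level as a covariate, only the arrays compared, and leaving out each array or slide. Same-numbered arrays share a slide, but their deviations from the group means correlated at -0.46 to 0.54 over 24 pairs (median 0.064), with 9 above 0.1, so the numbers were not taken to pair the tumours. Adipocyte, keratinocyte and neutrophil marker lists had 4, 3 and 2 detected genes, with 1 call in all, a neutrophil marker higher in ALA plus X-ray than in control tumours.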

Additional observations from a re-analysis of the deposited data

Results flagged for a closer look

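Among 152 sets of 4 values (38 members in 4 groups), 8 (5.26%) held 1 tumour far from the other 3, and chance gives about 1 in 20 such sets. Control tumour 4 was the low one for Pfkp (1.57), Egln3 (-1.75) and Plod2 (2.30). ALA tumour 2 was the low one for Tpi1 (7.57) and Pdk1 (1.77). X-ray tumour 3 was low for Ero1a (3.84) and high for Kdm3a (3.16), and X-ray tumour 2 was high for Egln1 (2.30).

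The difference made by ALA in Ndrg1 was not the same with and without X-rays, by the test of that difference: the interaction was -1.82 on the log2 scale (limma adjusted p 0.0295, 95% interval -2.56 to -1.08).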

How the results depend on the processing

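No called member changed sign under any alternative, but the counts of called members depended on the settings. For X-ray against control, 8 members became 1 with median scaling, 0 without a filter and 4 with the replicate block. Calls over all genes there were 28, 3 of 30010 and 489 in the same order, beside 519 in the main fit. For ALA plus X-ray beside X-ray, 2 became 1 with quantile scaling, median scaling, the authors' values and the replicate block, and 0 without a filter, with the muscle level or with only the arrays compared. In the same order calls over all genes were 394, 243, 275, 322, 11 of 30010, 48 and 1, beside 318 in the main fit. Against control, 2 became 7 with a normexp background, 4 with the strict filter and 4 with the replicate block. Calls over all genes there were 4196 of 15399, 3686 of 12144 and 4147 of 15399, beside 3828 of 15399 in the main fit. Against ALA, 2 became 1 without a filter or with only the arrays compared, 6 with the strict filter and 0 with the muscle level, and 3 with the replicate block. Over all genes the calls were 2588 of 30010, 1589, 3406 of 12144, 513 and 4102 in the same order, beside 3713 in the main fit. The interaction went from 1 to 2 with normexp and to 0 without a filter, with the replicate block or with the muscle level, and was not run on only the arrays compared. Its calls over all genes were 171, 40 of 30010, 8 and 2 in the same order, beside 189 in the main fit. The enzymes' X-ray median of 0.40 became 0.22 with quantile scaling and 0.22 with the authors' values. The cause was not tested.

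Leaving out 1 array or slide gave 0 to 14 called members for X-ray against control, 0 to 0 for ALA against control, 0 to 8 for ALA plus X-ray beside X-ray, 0 to 9 against control, 0 to 8 against ALA and 0 to 12 for the interaction. The highest came without ALA tumour 2 (14, 8 against ALA, 12) or ALA plus X-ray tumour 1 (8 beside X-ray, 9). In the same order these fits called 531, 2882, 400, 3135 and 5953 of all 15399 genes. With all arrays the calls over all genes were 519, 3713, 189, 318 and 3828. The X-ray median stayed between 0.26 and 0.47 for enzymes and 0.63 and 0.93 for targets. In the same order the other medians ran, for enzymes, from 0.10 to 0.31, -0.42 to -0.27, -0.03 to 0.12 and -0.24 to -0.10, and for targets from 0.34 to 0.95, -0.68 to -0.35, -0.08 to 0.51 and -0.62 to -0.02. The interaction medians ran from -0.70 to -0.37 for enzymes and -1.36 to -0.81 for targets. Dim signal limits Car12, which was not tested.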
